A study of Drosophila melanogaster with 24 samples.

Results

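The microRNA gene mir-958 of Drosophila melanogaster gives 2 mature arms, listed as dme-miR-958-3p and dme-miR-958-5p, and both were followed here through every library of a small RNA sequencing study. They were taken from the deposited count table by name and are 2 of its 466 mature microRNAs. The study addressed how the microRNAs of hemolymph, the circulating fluid of the fly, relate to those of the body and how both differ between ages. The flies were labelled male and were sampled at 2 days (young) or 25 days (old) of age. The 24 libraries fall into 4 groups, with 4 libraries of young flies and 8 of old flies from each compartment. Hemolymph RNA was extracted with a serum and plasma kit and tissue RNA with the miRNeasy kit, as the labels' protocols state, so kit and compartment cannot be told apart. The labels give no strain, no treatment and no word on whether a library came from 1 fly or a pool, so p-values reflect only how far these libraries differ, and part of that spread may be technical.

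Toll signalling is the branch of fly innate immunity that answers Gram-positive bacteria and fungi. The receptor Toll releases the NF-kB factors Dif and Dorsal, which switch on antimicrobial peptide genes such as Drosomycin, chiefly in the fat body. In flies, miR-958 is known to repress Toll and Dif and so to dampen this response. Of the arms cut from a hairpin, one usually accumulates as the guide strand and the other is kept at a low level.

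In the Ensembl annotation of BDGP6, the assembly also called dm6, the mir-958 hairpin lies on chromosome arm 3L from base 22669289 to base 22669380 on the minus strand and is 92 bases long. It sits in exon 1 (22669250 to 22669528) of the long noncoding RNA gene lncRNA:CR43270, which runs from 22665300 to 22669528 on the same strand. The mature product annotated at 22669302 to 22669323 (22 bases) is the 3p arm by its position, and that at 22669343 to 22669365 (23 bases) is the 5p arm. Within 10 kb there were 0 other annotated microRNA hairpins, and the nearest, mir-957, was 150998 bases away. The nearest protein-coding gene was Jhbp6, 576 bases away on the plus strand. The deposited table lists each arm under 1 hairpin, so neither shares its name with a second locus.

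Libraries held 136692 to 242935 microRNA counts in body and 52792 to 275974 in hemolymph. In hemolymph, 1 count is therefore a large step for a rare microRNA, and intervals below cover counting error only. The young body libraries differed from each other in ovary microRNAs although all flies are labelled male. The summed level of the 3 ovary microRNAs (miR-318-3p, miR-989-3p and miR-994-5p) was 2551 and 14957 CPM, the counts scaled to 1000000 per library, in young body libraries 1 and 2. It was 80276 and 69146 CPM in libraries 3 and 4, and 19753 to 35788 CPM in the 8 old body libraries. miR-318-3p and miR-994-5p were lower in young libraries 1 and 2 than in 3 and 4. miR-989-3p did not follow these pairs, at 2418, 5322, 3542 and 4236 CPM in young body libraries 1 to 4. Of the 8 microRNAs of a testis cluster, 6 were at 0 in all 4 young body libraries and 3 in all 8 old ones.

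The 3p arm was a well-expressed body microRNA and close to the limit of counting in hemolymph. In young body libraries 1 to 4 it stood at 7621, 8913, 3173 and 4059 CPM, from 1428, 1606, 627 and 986 counts (mean 5941 ± 2761, SD, n = 4). In old body the lowest library had 4917, the median 5599 and the highest 6705 CPM (mean 5646 ± 648, SD, n = 8). The young body libraries thus form a high pair and a low pair, and the old ones lie between them.

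In young hemolymph the 3p arm was at 11.8, 50.7, 35.7 and 43.3 CPM, which are 2, 14, 2 and 3 counts (mean 35.4 ± 16.9, SD, n = 4). In old hemolymph libraries 1 to 8 it had 1, 2, 0, 4, 1, 3, 1 and 4 counts, with a lowest value of 0, a median of 24.2 and a highest of 72.1 CPM (mean 26.3 ± 23.3, SD, n = 8). The highest value, from 4 counts, was that of old hemolymph library 4. That library also had the highest ovary sum of the old hemolymph libraries, at 20197 CPM, with library 2 next at 3067 CPM. It was highest as well in miR-956-3p, a microRNA abundant in body, at 9053 CPM. No link between these values was tested. The 0 in old hemolymph library 3, out of 52792 counts, allows a level of up to 56.8 CPM, taking 3 counts as the floor. Every hemolymph library lay below every body library at both ages, with no overlap.

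**Figure D1:**
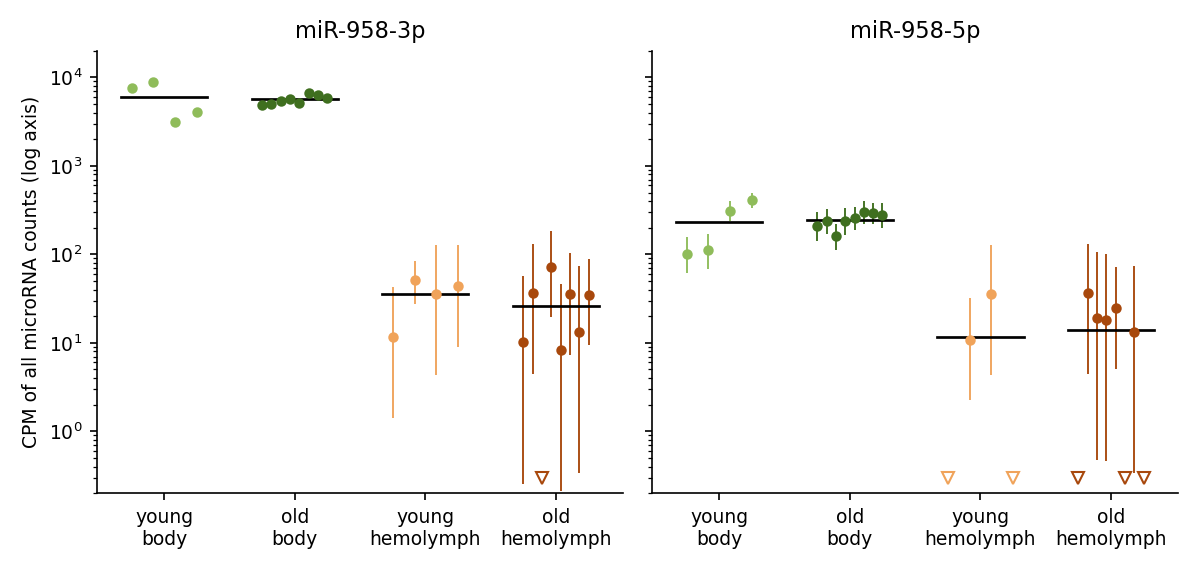
Level of each mir-958 arm in every library, in CPM on a log axis; points are libraries with the exact 95% Poisson interval of their count, black lines are group means, and open triangles at the bottom mark libraries with 0 counts. The 3p arm sits between 3173 and 8913 CPM in all body libraries and at 72.1 CPM or below in all hemolymph libraries.

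The mean level of the 3p arm in hemolymph was 0.596% of its body level at the young age and 0.4663% at the old age. In edgeR's quasi-likelihood test over all libraries, its log2 fold change of hemolymph over body was -7.37 ± 0.58 (SE) in young flies, with an adjusted p of 1.2e-10. In old flies it was -7.88 ± 0.44 (SE), with an adjusted p of 1.1e-13. Differences between compartments were common: at the young age 91 of 124 microRNAs tested passed the same test (73.4%), and at the old age 102 of 124 did (82.3%). In such bulk samples, fewer cells of a type and less RNA per cell cannot be told apart.

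The 5p arm was the rarer arm in every body library. In young body libraries 1 to 4 it stood at 101, 111, 309 and 408 CPM, from 19, 20, 61 and 99 counts (mean 232 ± 151, SD, n = 4). In old body it ran from 161 through a median of 248 to 301 CPM (mean 247 ± 46.2, SD, n = 8). Here young libraries 1 and 2 were the low pair and 3 and 4 the high pair, the reverse of the order for the 3p arm.

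In young hemolymph the 5p arm had 0, 3, 2 and 0 counts, or 0, 10.9, 35.7 and 0 CPM (mean 11.6 ± 16.8, SD, n = 4). In old hemolymph libraries 1 to 8 it had 0, 2, 1, 1, 3, 0, 1 and 0 counts, with a median of 15.7 and a highest value of 36.3 CPM (mean 13.9 ± 13.3, SD, n = 8). It was without a count in 2 of 4 young and 3 of 8 old hemolymph libraries. The groups of body and hemolymph did not overlap at either age.

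The mean level of the 5p arm in hemolymph was 5.02% of its body level at the young age and 5.63% at the old age. Its log2 fold change of hemolymph over body was -4.34 ± 0.65 (SE) in young flies in edgeR's test, with an adjusted p of 2.0e-06. In old flies it was -4.33 ± 0.47 (SE), with an adjusted p of 9.0e-09. A two-sided exact permutation test of the difference in mean CPM gave p = 0.0286 in young flies, the smallest that 4 against 4 libraries allow, which became 0.0686 after Benjamini-Hochberg adjustment over 12 exact tests. The same exact test gave p = 0.000155 in old flies, the smallest that 8 against 8 allow (adjusted 0.000622).

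Ordered by fold change from the lowest, miR-958-3p held place 1 of the 124 microRNAs tested in old flies. The next was miR-987-5p at -7.31 ± 0.58 (SE, log2), so the distance between these neighbours lies within their summed standard errors. In young flies miR-958-3p held place 6, between miR-990-5p at -8.34 ± 0.98 and miR-994-3p at -6.83 ± 1.42 (SE, log2). Each of these distances also lies within the summed standard errors of the pair. The 5p arm held place 24 in young flies, between miR-31b-5p at -4.37 and miR-12-5p at -4.14. It held place 15 in old flies, between miR-927-5p at -4.70 and miR-10-5p at -4.03. About 40.3% of microRNAs tested were lower in hemolymph in young flies and 46.0% in old flies, while 33.1% and 36.3% were higher.

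**Figure D2:**
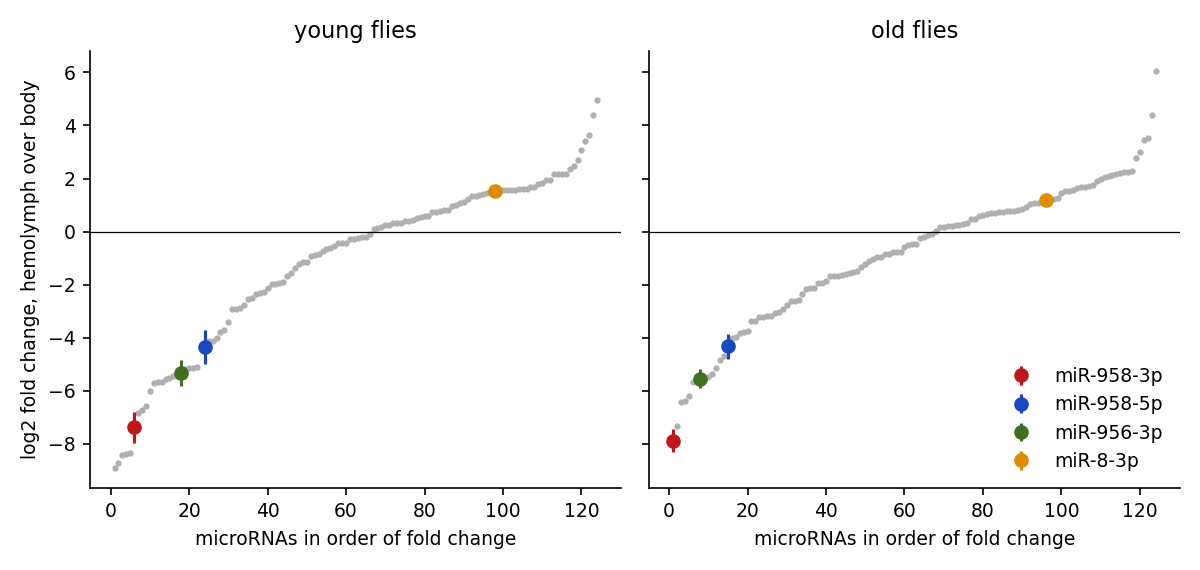
Log2 fold change of hemolymph over body for the 124 microRNAs tested, in order from the lowest, in young and old flies; coloured points are named microRNAs with their SE, grey points all others. In old flies miR-958-3p is the first point at -7.88 and miR-958-5p the fifteenth at -4.33, and miR-8-3p lies above 0 in both panels.

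By mean level among all microRNAs with a count, miR-958-3p ranked 24 of 264 in young body and 26 of 273 in old body. In young body its neighbours were miR-9a-5p at 6042 ± 4253 and miR-995-3p at 5853 ± 4780 CPM, and in old body miR-305-5p at 5823 ± 477 and miR-999-3p at 4838 ± 300 CPM (mean ± SD). It ranked 108 of 219 in young hemolymph and 110 of 240 in old hemolymph. The 5p arm ranked 85 and 81 in young and old body, and 145 and 129 in young and old hemolymph. Its old body neighbours were miR-315-5p at 274 ± 40.7 and miR-981-3p at 211 ± 39.0 CPM. Each of these neighbours lay within the summed SDs of the pair, and the positions were not tested. Across the 4 groups the order of the 3p arm was young body, old body, young hemolymph, old hemolymph. The 2 body groups did not differ beyond their spread, nor did the 2 hemolymph groups.

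A ratio within a library needs no scaling between libraries, so the 3p arm was set against miR-956-3p, the most abundant of 5 microRNAs typical of these body libraries. Counts of miR-958-3p were 3.93%, 3.51%, 1.37% and 2.26% of those of miR-956-3p in young body libraries 1 to 4. They were 2.32% to 2.98% in old body. In young hemolymph the values were 1.44%, 0.916%, 0.590% and 0.558%, and in old hemolymph they ran from 0.108% to 1.22%, with library 3 set at its floor of 3 counts. Young hemolymph library 1 lay above young body library 3, so the young groups overlapped, while the old groups did not.

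The mean log2 ratio of miR-958-3p to miR-956-3p was lower in hemolymph by -1.65 in young flies, which a two-sided exact permutation test did not separate (p = 0.0571, adjusted 0.114). In old flies the difference was -2.24, with an exact p of 0.000155 (adjusted 0.000622). Against the summed counts of all 5 body microRNAs (miR-956-3p, miR-10-5p, miR-133-3p, miR-1-3p and miR-210-3p) the difference was -1.92 in young flies (exact p = 0.0286, adjusted 0.0686). It was -2.75 in old flies (exact p = 0.000155, adjusted 0.000622). All 5 of these body microRNAs were themselves lower in hemolymph in edgeR's test at both ages, with a median log2 fold change of -5.45 in young and -5.49 in old flies. The median over all microRNAs tested was -0.26 and -0.45. The list was drawn up with the levels in these libraries known, so its direction and the gaps to it are a description. The exact p-values hold only for these chosen comparators. miR-956-3p and miR-10-5p, at means of 222628 and 57182 CPM in old body, dominate the sum, so it is no independent check of the first ratio. The gap also varies with the comparator: in old flies miR-210-3p stood at -6.39 and miR-956-3p at -5.55 (log2), against -7.88 for miR-958-3p.

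The use of the arms differed between body libraries. The 5p arm made up 1.31% and 1.23% of the counts of both arms in young body libraries 1 and 2, with exact 95% binomial intervals of 0.792 to 2.04 and 0.753 to 1.89. It made up 8.87% and 9.12% in libraries 3 and 4, with intervals of 6.85 to 11.2 and 7.48 to 11.0. In old body the share ran from 2.87% through a median of 4.34% to 4.75% (mean 4.19 ± 0.591, SD, n = 8). The young pairs lie on opposite sides of all 8 old libraries, and their intervals do not overlap each other.

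Summed over libraries, the share of the 5p arm differed by less than its counting interval between the ages. It was 4.11% in young body and 4.13% in old body, from 4846 and 7791 counts of both arms. The counting interval of the young sum, 3.57 to 4.70%, holds the share of none of the young body libraries, which lie on both sides of it. It treats reads of different libraries as 1 pool and does not measure the spread between libraries. The mean share differed by -0.94 percentage points between old and young body, and a two-sided exact permutation test gave p = 0.570 (adjusted 0.760). The summed level of the ovary microRNAs, 2551 and 14957 CPM in young libraries 1 and 2 and 80276 and 69146 CPM in 3 and 4, moved with this share across the young pairs. So did miR-318-3p and miR-994-5p, but not miR-989-3p, which was highest in young library 2. The part of the ovary microRNAs in this difference between the young pairs was not tested. Their relation to the share within old body is given below.

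**Figure D3:**
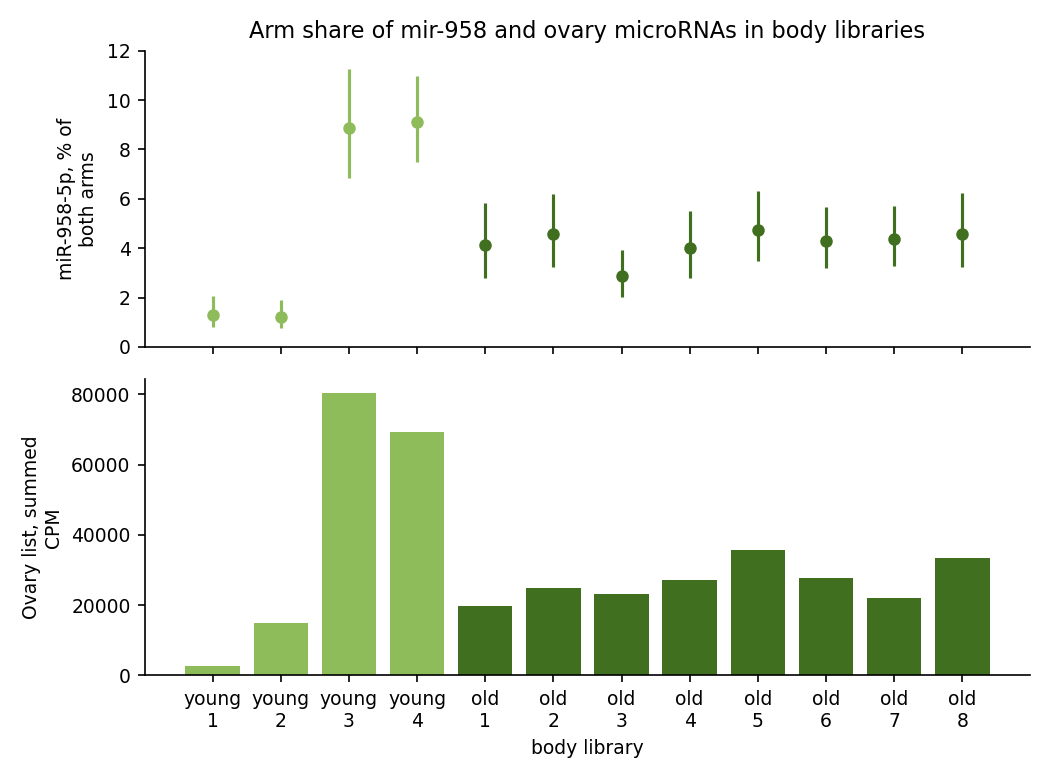
Top, share of the 5p arm in the counts of both mir-958 arms in each body library, with exact 95% binomial intervals; bottom, summed level of the 3 ovary microRNAs in the same libraries, in CPM. Young libraries 1 and 2 lie near 1% and young libraries 3 and 4 near 9%, and the ovary sum is lowest in young 1 and highest in young 3.

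Within the 8 old body libraries, which are more alike, the levels of the arms gave a Pearson r of 0.664 (permutation p = 0.0570, adjusted 0.114) and a Spearman rho of 0.810 (permutation p = 0.0218). Without the 2 libraries farthest from the median of the 3p arm, which also narrows the range, r was 0.237. The ovary sum and the share of the 5p arm gave r = 0.502 (permutation p = 0.148) and rho = 0.595 (permutation p = 0.132), and r = 0.152 without the 2 farthest. These were the 2 relations computed.

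The other hairpins whose arms were both counted give a scale for this difference. Of 24 hairpins compared in young body, 6 including mir-958 had a minor-arm share at least 1.5 times higher in both of libraries 3 and 4 than in both of 1 and 2. In 1 of the 24, mir-9a, the share differed that far the other way. The ratio of the lowest share in libraries 3 and 4 to the highest in 1 and 2 was 6.75 for miR-958-5p. The next in that direction was 2.16 for miR-282-3p, and in the other direction the ratio was 2.17 for miR-9a-3p. This is a description of 4 libraries, with no test.

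In hemolymph the few reads of mir-958 were split less unevenly between the arms. Of 26 reads in young hemolymph, 5 were of the 5p arm (19.2%, exact 95% interval 6.55 to 39.4), and of 24 reads in old hemolymph, 8 were (33.3%, 15.6 to 55.3). Over all hemolymph libraries the share was 26.0% (14.6 to 40.3), against 4.12% (3.78 to 4.48) over all body libraries. The 5p arm had at least as many counts as the 3p arm in 1 of 4 young and 4 of 8 old hemolymph libraries.

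No hemolymph library held 20 reads of both arms, so the shares were not tested over libraries, and the intervals of the sums treat reads of different libraries as 1 pool. Hairpins were compared if they had at least 20 reads in each compartment and at least 20 minor-arm reads in body. Among these 40 hairpins, the minor-arm share was higher in hemolymph than in body for 28, with a median ratio of 1.61. The ratio of mir-958 was 6.31, in place 3 after miR-306-3p at 7.50 and miR-184-5p at 6.69. A higher share of the minor arm in hemolymph was thus the more frequent direction among these hairpins. The minor arm was defined as the arm with fewer reads in body, and this choice by itself can favour that direction. The count and the place of mir-958 are therefore only a description.

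Between the ages, neither arm of mir-958 passed the test in body. The log2 fold change of old over young was -0.18 ± 0.28 (SE) for miR-958-3p in edgeR's test within the body libraries, with an adjusted p of 0.612. It was 0.11 ± 0.29 for miR-958-5p, with an adjusted p of 0.760. In the same test 56 of 115 microRNAs passed (48.7%, with 19.1% higher and 29.6% lower), and the median over all tested was -0.20. A two-sided exact permutation test of the 5p arm's mean CPM gave p = 0.8, which adjustment left at 0.8.

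The comparison of ages in body depends on which young libraries enter it. Without young body libraries 1 and 2, which leaves only 3 and 4 in the young group, the log2 fold change of miR-958-3p was 0.71, with an edgeR adjusted p of 0.000888. Without young body libraries 3 and 4, which leaves only 1 and 2, it was -0.66, with an edgeR adjusted p of 0.00081. For miR-958-5p the values were -0.49 (edgeR adjusted p = 0.0616) and 1.09 (edgeR adjusted p = 0.00234). No direction with age can therefore be given for either arm in body. The young pairs also differ in the summed level of the ovary microRNAs given above, whose part was not tested.

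In hemolymph neither arm passed the filter on low counts for the comparison of ages, in which 40 of 86 microRNAs tested passed (46.5%, with 18.6% higher and 27.9% lower). Two-sided exact permutation tests of mean CPM gave p = 0.489 (adjusted 0.733) for miR-958-3p, at 26.3 in old against 35.4 in young. The exact test gave p = 0.788 (adjusted 0.8) for miR-958-5p, at 13.9 against 11.6. For both arms the old libraries overlapped the young ones, and most of these values rest on 4 counts or fewer.

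The age change in hemolymph minus that in body was -0.50 ± 0.67 (SE, log2) for miR-958-3p, with an edgeR adjusted p of 0.660. It was 0.01 for miR-958-5p, with an edgeR adjusted p of 0.9996, and ran from -0.29 to 0.79 without single libraries. No SE is given for this value, because SEs derived from the F statistic are unreliable for a fold change so near 0. In this test of the difference 18 of 124 microRNAs passed (14.5%, with 6.45% higher and 8.06% lower). The gap of the 3p arm between compartments was thus not shown to differ between ages.

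Old libraries 5 to 8 carry the letter R in their description codes and 1 to 4 the letter O, and the labels do not explain the letters. The mean level of miR-958-3p in old body was 5279 ± 391 CPM in the O libraries and 6013 ± 685 in the R libraries (SD, n = 4 each), with an exact permutation p of 0.114 (adjusted 0.196). In old hemolymph it was 29.6 ± 32.2 and 23.0 ± 14.2 CPM, with an exact permutation p of 0.771 (adjusted 0.8). The code series overlapped in both compartments.

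Other microRNAs that act on fly immune signalling were found in both directions between compartments, about as often as microRNAs at large. A list of 12 was followed, of which 11 were tested. In young flies 3 were higher and 5 lower in hemolymph, beside 33.1% higher and 40.3% lower among all tested, with a median log2 fold change of -0.94 against -0.26. At the old age 4 were higher and 5 lower, beside 36.3% and 46.0% among all tested, with a median of 0.21 against -0.45. These shares are near the background and are no result about the list. The list and its make-up were chosen with earlier results of these data known.

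Of the 7 list members placed in Toll signalling, miR-8-3p, which keeps antimicrobial peptide expression low in the fat body, was the most abundant microRNA of the list in hemolymph. It stood at a mean of 219116 ± 71466 CPM in young and 330433 ± 51306 CPM in old hemolymph, against 84226 ± 19240 and 134857 ± 3947 CPM in young and old body (SD). Its log2 fold change of hemolymph over body was 1.52 ± 0.23 (SE) in young and 1.20 ± 0.16 in old flies in edgeR's test, with adjusted p of 1.9e-06 and 2.3e-07. It was thus higher in the compartment where both arms of mir-958 were lower.

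miR-317-3p, which targets Dif as miR-958 does, was lower in hemolymph in young flies at -0.94 ± 0.38 (SE, log2; edgeR adjusted p = 0.0281) and higher in old flies at 0.65 ± 0.26 (edgeR adjusted p = 0.0267). With upper-quartile scaling the first value was -0.29 and did not pass, and with RLE scaling the second was 0.39 and did not pass. Both calls depend on the setting: the young one held in 11 and the old one in 9 of 14 alternatives, and without young body library 2 the young value was -0.44 (edgeR adjusted p = 0.272). Its age changes differed between compartments by 1.59 ± 0.46 (SE, log2; edgeR adjusted p = 0.0209), a call kept in 11 of 13 alternatives and lost without young body library 2 (1.09, edgeR adjusted p = 0.0873). In that test of a difference miR-9a-5p, let-7-5p and miR-34-5p did not pass, but they stayed so in only 5, 6 and 8 of 13 alternatives, so which immune microRNAs pass it depends on the setting. The 4 members of the miR-310 family (miR-310-3p, miR-311-3p, miR-312-3p and miR-313-3p), which target Drosomycin, were lower in hemolymph in old flies, from -3.39 for miR-310-3p to -1.51 for miR-312-3p. The call of miR-312-3p held in 9 of 13 alternatives and was lost without any 1 of old hemolymph libraries 3, 5, 6 and 7 (edgeR adjusted p of 0.0507 to 0.0630), and that of miR-311-3p held in 11 of 13. In young flies miR-311-3p did not pass, at -1.39 ± 0.91 (edgeR adjusted p = 0.178), and the other 3 were lower. It passed as lower under 6 of 13 alternatives and without either of 2 single libraries, so no firm call can be given there. With only the libraries of the groups compared, miR-312-3p and miR-313-3p did not pass in young flies (edgeR adjusted p of 0.108 and 0.0911). Levels of this family varied widely among young body libraries, where miR-312-3p ran from 1265 to 48597 CPM. miR-964-5p, which also targets Drosomycin, was too rare to be tested, with a mean of 9.66 CPM in young body and 25.3 CPM in old body.

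Of the 5 list members placed in the IMD pathway, the branch that answers Gram-negative bacteria, let-7-5p was higher in hemolymph at 1.34 ± 0.31 in young and 2.23 ± 0.23 in old flies (SE, log2). miR-981-3p, which like let-7 and miR-9a acts on Diptericin, had the lowest fold change of the list, at -3.96 ± 0.52 in old and -3.99 ± 0.57 in young flies. miR-9a-5p was higher in young flies at 1.68 ± 0.44 and did not pass in old flies at 0.21 ± 0.30. miR-277-3p was higher in old flies at 0.48 ± 0.21, a call kept in 8 of 14 alternatives and lost without old hemolymph library 3 (0.29, edgeR adjusted p = 0.126) or old body library 5 (0.42, edgeR adjusted p = 0.0569). miR-34-5p stood at -0.83 ± 0.47 in young flies (edgeR adjusted p = 0.114) and at 0.48 ± 0.32 in old flies (edgeR adjusted p = 0.166). In young flies it passed as lower under 8 of 14 alternatives and without any 1 of 10 libraries, so no firm call can be given there. With upper-quartile factors miR-9a-5p (0.68) and miR-34-5p (0.95) passed in old flies and miR-277-3p (0.93) in young flies.

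**Figure D4:**
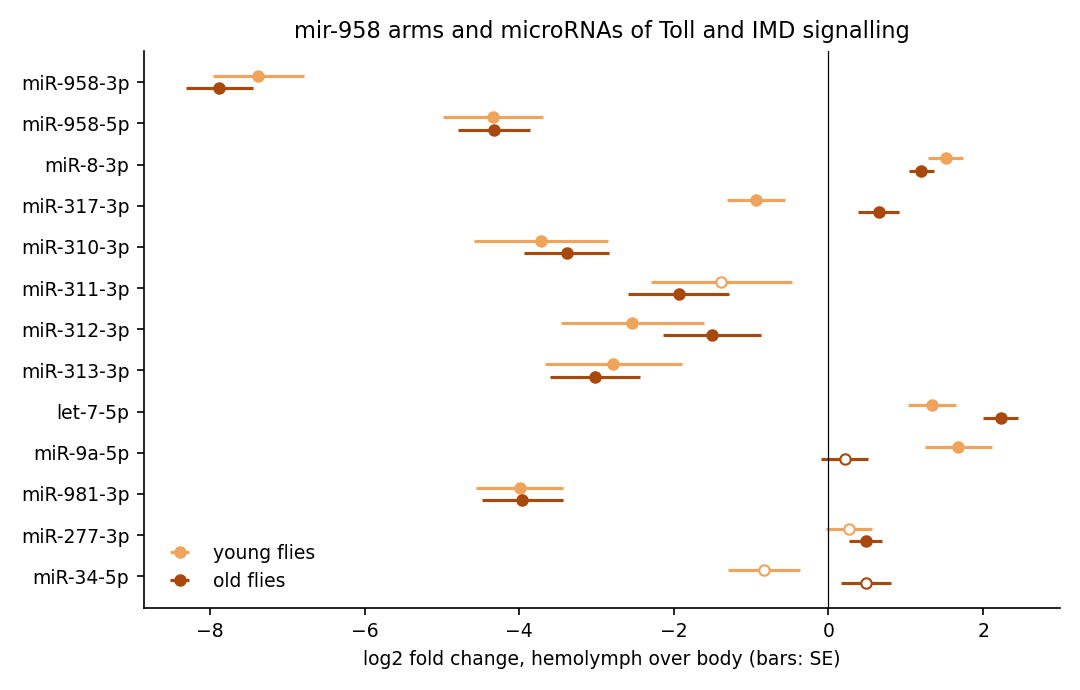
Log2 fold change of hemolymph over body (x axis) for both mir-958 arms and the 11 tested microRNAs of Toll and IMD signalling, in young and old flies; bars are SE, and open points did not pass an adjusted p of 0.05. miR-958-3p lies farthest to the left at both ages, and miR-8-3p and let-7-5p lie to the right of 0 at both.

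Between the ages in body, 2 of the 11 immune microRNAs tested were higher and 3 lower in old flies, close to the 19.1% higher and 29.6% lower among all tested, with a median of -0.20 in both. miR-34-5p (1.19 ± 0.20, SE, log2) and miR-8-3p (0.66 ± 0.10) were higher, and miR-981-3p (-1.91 ± 0.38), miR-277-3p (-1.28 ± 0.16) and let-7-5p (-0.63 ± 0.22) were lower in edgeR's test. The calls of miR-34-5p and miR-8-3p each held in 11 of 13 alternatives. That of let-7-5p held in 9 of 13, with -0.07 without young libraries 1 and 2 (edgeR adjusted p = 0.638). It was also lost without young body library 1 (-0.27, edgeR adjusted p = 0.0964), young body library 2 (-0.52, edgeR adjusted p = 0.0574) or old body library 7 (-0.59, edgeR adjusted p = 0.0509). In hemolymph 2 of 9 tested were higher in old flies, beside 18.6% of all tested, miR-34-5p at 2.60 ± 0.57 and miR-317-3p at 1.34 ± 0.36. There 2 were lower, beside 27.9% of all tested, miR-9a-5p at -2.33 ± 0.32 and miR-277-3p at -1.09 ± 0.28. For miR-277-3p this did not hold without young hemolymph library 2 (-0.83, edgeR adjusted p = 0.0804) or library 3 (-0.64, edgeR adjusted p = 0.118). The arms of mir-958 passed no test of age with all libraries included.

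The microRNAs whose levels were most like those of miR-958-3p over all 24 libraries were miR-276b-3p, miR-956-3p, miR-314-3p, miR-990-5p and miR-932-5p. Their Pearson correlations of log2(CPM + 1) with it were 0.956, 0.953, 0.952, 0.944 and 0.942, among 99 candidates with a mean of at least 100 CPM in body. That of its own other arm was 0.794. The points fall into 2 compartments, so these values mostly restate the difference between body and hemolymph.

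Over the 12 body libraries the most alike were miR-31b-5p at 0.835, miR-10-5p at 0.824, miR-278-5p at 0.802, miR-304-5p at 0.788 and miR-184-3p at 0.777. The 5p arm of mir-958 stood at -0.672 over the same libraries, a sign set by the young pairs, since within the 8 old body libraries r between the arms was 0.664. That last value is of CPM, while those over the 12 libraries are of log2(CPM + 1). The young libraries also vary widely in listed microRNAs: miR-10-5p ran from 41880 to 75154 CPM in young body and from 50839 to 65520 CPM in old body. Likeness of the listed microRNAs within old body alone was not computed. The values are a description with no test.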

How the data were processed

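Small RNA was sequenced with TruSeq small RNA reagents, per the labels' protocols. The deposited table holds whole-number counts per mature microRNA and hairpin, with no normalization, and RPM values that equal each deposited count scaled to its column total within 0.005. The submitters' processing notes name Bowtie 1.0, edgeR and dm6; the microRNA annotation release is not given in the sources used here, nor is how reads matching several places were handled. Of 476 rows, 10 that repeat a mature name under a further hairpin were left out. RPM values were not tested.

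Counts were tested in R 4.3.3 with edgeR 4.0.16 (filterByExpr at a minimum count of 10, TMM, quasi-likelihood F test, Benjamini-Hochberg at 0.05). Compartment contrasts and the difference of age changes used all 24 libraries, and age contrasts the 12 libraries of a compartment. The SE of a log2 fold change is its absolute value divided by the square root of its F statistic. Single values were compared with two-sided exact permutation tests in Python 3.11.15 with scipy 1.17.1, adjusted over 12 tests. CPM are counts scaled to 1000000 microRNA counts per library. Shares have Clopper-Pearson intervals and counts exact Poisson intervals, all at 95%. The fits were also run on simulated data, with the same spread for every microRNA and fewer changed than between the compartments here. A true log2 change of -1 was called in 3 of 10 microRNAs between young compartments and 7 of 10 between old ones. With age it was called in 6 of 9 in body and 1 of 8 in hemolymph. For the difference of age changes it was called in 2 of 10, so changes of this size can be missed. Because TMM centres on the typical microRNA, absolute amounts were not measured. No pair of libraries agreed within sampling noise. Alternatives covered scaling, filters, DESeq2 1.42.0, a replicate block, the code series and leaving out libraries. Leaving out young libraries 3 and 4, exact tests of the 3p arm in hemolymph and comparisons with other hairpins were chosen after seeing the data. The members and lists were chosen with earlier results of these data known. Named microRNAs were both arms, the immune and body lists, the 5 most alike over all and over body libraries, and the neighbours in each order. Others are named to give a scale. MicroRNAs with a shared seed were not analysed here.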

Additional observations from a re-analysis of the deposited data

Results flagged for a closer look

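Within a group, 2 single libraries stood apart from the rest by Dixon's criterion among 18 groups of values examined, and chance gives about 1 in 20. The share of the 5p arm in old body library 3 was 2.87%, the lowest of the 8 old body libraries. The log2 ratio of miR-958-3p to the 5 body microRNAs in young hemolymph library 2 was -7.24, the highest of the 4 young hemolymph libraries. That library is also the deepest of the group, with 14 counts of the 3p arm. No explanation of either was tested.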

How the results depend on the processing

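The log2 fold change of miR-958-3p between compartments passed the test under all 14 alternatives at each age, from -7.84 to -6.52 in young and from -8.22 to -7.41 in old flies. Scaling moved the median of all microRNAs tested in young flies from -0.26 to -0.78 with RLE and to 0.32 with upper-quartile factors, and the split of calls from 41 higher and 50 lower to 55 and 45 with the latter. In old flies the median moved to -0.73 and 0.03. For the age change of miR-958-3p in body the value was 0.0073 with RLE and 0.0074 with DESeq2, 0.71 without young libraries 1 and 2, and -0.66 without 3 and 4. Leaving out single libraries gave -0.39 to 0.22. The difference of its age changes became 0.013 without young libraries 3 and 4.

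For miR-958-5p in body the age change was -0.049 with upper-quartile factors, -0.33 with the O libraries alone and -0.49 without young libraries 1 and 2. Single libraries left out gave -0.17 to 0.40. The difference of its age changes was -0.44 without young libraries 3 and 4, and -0.29 to 0.79 without single libraries. Its CPM differed between compartments in young flies by -264.1 to -162.0 without single libraries, with an exact p of 0.0571 each, the smallest then possible. With age it differed by -28.4 to 73.7 CPM in body (-19.7 with the O libraries) and by -1.60 to 10.3 in hemolymph (-2.10 with the R libraries). The age difference of its share ran from -2.24 to 0.39 points, and was 0.026 from summed counts. The young log2 ratio to the body list ran from -2.19 to -1.75, all at an exact p of 0.0571, and the O minus R difference in old hemolymph from -7.55 to 16.5 CPM.

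Same-numbered libraries did not deviate together throughout: 3 of 4 young pairs of body and hemolymph and 2 of 8 old pairs had a correlation above 0.1, and 2 and 1 of them correlated best with their own number. The replicate block left miR-958-3p at -7.54 in young and -7.92 in old flies. It gave 20 calls with age in body, 20 in hemolymph, and for miR-958-5p -0.13 with age in body and -0.31 for the difference. For the age contrasts this fit left out the R libraries and blocked young and old libraries 1 to 4 by number. Its fall in calls with age thus cannot be credited to blocking alone. The O libraries alone gave 28 calls with age in body and 25 in hemolymph, and the R libraries 28 in body. Calls of the difference of age changes numbered 28 with RLE, 32 with DESeq2, 9 unfiltered, 5 with the R libraries, 29 without young libraries 1 and 2, and 30 without ovary and miR-310 family microRNAs. With age in body, miR-10-5p became 0.40 without young libraries 1 and 2, and miR-312-3p 2.37 and miR-318-3p 2.52 without 3 and 4. The causes were not tested. Depth limits both arms in hemolymph, where shares between compartments and an edgeR value for age with the filter could not be had.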
